A study of Mus musculus with 14 samples.

Results

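Interferon-stimulated genes are the genes that cells switch on when an interferon binds its receptor. A set of 43 of them was named for this report by gene symbol. No measured value was used as a criterion, but earlier results of these data were known. The set was followed in mouse pancreatic stellate cells (PSCs) and in mouse livers. All 43 were among the 54532 genes of the liver table and among the 16481 genes of the PSC table, 42 by symbol and Ifi27 by its Ensembl identifier ENSMUSG00000064215 under the symbol Ifi27l1.

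The study asked how the mechanically gated channels PIEZO1 and TRPV4 act in pancreatic cancer. PSCs from mice were grown on Matrigel and given 25 µM Yoda1, a small-molecule agonist of PIEZO1, or its solvent DMSO, with 3 samples of each. The study's methods place RNA isolation 24 hours after Yoda1, whereas a legend in its supplement gives 72 hours. The livers were taken 20 days after mice received KPCY pancreatic tumor cells, which carry a functional Trpv4 gene, in the pancreatic tail, and they belonged to WT mice (n = 2), TRPV4-KO mice (n = 3) and WT mice given GSK219 (n = 3). The WT line is described in the study's methods as carrying floxed Piezo1 (Piezo1 fl/fl). The TRPV4-KO mice were Trpv4-/- in every host cell. GSK219 is the TRPV4 antagonist GSK2193874, given daily by gavage at 10 mg/kg. Whether the WT mice received the vehicle was not given in the sources used here. The mice were 8 to 12 weeks old according to the methods, and all 8 livers were from tumor-injected hosts, so no liver of a tumor-free mouse serves as a baseline.

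Type I interferons bind the receptor pair IFNAR1 and IFNAR2, which activates the kinases JAK1 and TYK2. The signal passes to a complex that contains STAT2 and IRF9, which binds the interferon-stimulated response element in the promoters of target genes. The products sense foreign nucleic acid, degrade or sequester viral RNA, modify proteins with ISG15, present antigen, and feed back on the pathway, and many are expressed at a basal level without added interferon in fibroblasts and in liver.

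The PSC libraries held 27312894 to 39070539 reads recovered from the deposited values and the liver libraries 15567031 to 17395299 gene counts. The defining markers of fibroblasts were abundant in the PSCs: 11 of 12 stellate and fibroblast markers were listed, and their summed normalized counts were 916629 to 1017050 in DMSO and 453096 to 566272 in Yoda1. Gfap was not listed there. Epithelial markers were also present, at 65118 to 92203 in DMSO and 52239 to 118412 in Yoda1, highest in preparation 3 under both treatments. PSC preparation 3 stood apart from the other preparations, since its libraries differed from same-treatment libraries with a chi-square per degree of freedom of 35.7 to 76.7, against 7.53 and 10.4 between preparations 1 and 2. Among the livers, replicate 1 of WT and replicate 3 of both TRPV4-KO and GSK219 had Xist reads (13681 to 15754 counts), and the other 5 had Y-linked reads (2332 to 2748 counts). Trpv4 itself had 43 and 53 counts in the WT livers, 15, 5 and 23 in those of TRPV4-KO mice and 20, 30 and 36 with GSK219.

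Sequence upstream of the members was compared with the response element first. The promoter table of RefSeq (build GRCm38.p6, 250 bases before to 50 bases after each gene's start) held a window for 33 of the 43 members. The core of the interferon-stimulated response element, which is GAAA, any 2 bases and GAAA again and was searched on both strands, was present in 15 of the 33 windows (45.5%), against 3.99% of the 27025 gene symbols in the table. The gamma-activated site TTCNNNGAA, an element of genes that respond to interferon-gamma, was present in 7 of the 33 (21.2%), against 9.55% of all symbols. Overlapping matches of the response element were counted as they occurred. A match describes these letters in this window and is not a measured binding site.

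The following 100-base stretches show how the element is arranged. Capitals mark each match to this core on either strand, and sequences are written 5′ to 3′ on the strand of the gene. Stat2 is shown because it was the member called in PSCs whose window held the element, Oasl1 and Ifit2 because they were called in PSCs without it, and Isg15, Ifit1, Oas3 and Bst2, chosen after their values were seen, because they show the element single, repeated and overlapping.
Stat2 (chr10:128270248-128270347, + strand, 250 to 151 bases before the start): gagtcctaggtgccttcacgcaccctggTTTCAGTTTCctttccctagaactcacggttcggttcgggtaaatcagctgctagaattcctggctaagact
Oasl1 (chr5:114923140-114923239, + strand, 100 to 1 bases before the start): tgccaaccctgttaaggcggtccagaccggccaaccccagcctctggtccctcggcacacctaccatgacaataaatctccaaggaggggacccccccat
Ifit2 (chr19:34550594-34550693, + strand, 100 to 1 bases before the start): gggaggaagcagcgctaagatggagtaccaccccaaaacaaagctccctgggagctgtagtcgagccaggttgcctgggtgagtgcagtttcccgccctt
Isg15 (chr4:156200819-156200918, - strand, 100 to 1 bases before the start): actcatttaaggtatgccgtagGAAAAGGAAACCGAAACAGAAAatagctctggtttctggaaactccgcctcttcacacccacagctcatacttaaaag
Ifit1 (chr19:34640769-34640868, + strand, 120 to 21 bases before the start): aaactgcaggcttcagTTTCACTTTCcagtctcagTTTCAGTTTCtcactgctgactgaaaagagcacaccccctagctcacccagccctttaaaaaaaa
Oas3 (chr5:120777670-120777769, - strand, 110 to 11 bases before the start): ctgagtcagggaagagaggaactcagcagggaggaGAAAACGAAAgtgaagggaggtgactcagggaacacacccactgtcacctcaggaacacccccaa
Bst2 (chr8:71537523-71537622, - strand, 150 to 51 bases before the start): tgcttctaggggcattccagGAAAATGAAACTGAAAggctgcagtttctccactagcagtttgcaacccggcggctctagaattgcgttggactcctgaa
Isg15 carried 3 overlapping matches, Ifit1 carried 2 separate ones on the opposite strand, Bst2 carried 2 overlapping ones, and Stat2 and Oas3 carried 1 each. The stretch of Oasl1 lies within an antisense gene, Gm13822, whose exon covers 36 of its bases.

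In PSCs, Yoda1 was compared with DMSO to ask which members changed when PIEZO1 was activated. Of the 42 members that reached the expression filter, 6 rose and none fell by limma at an adjusted p under 0.05: Oasl1, Oasl2, Ifit2, Zbp1, Stat2 and Trim25. That is 14.3% of the members tested, against 2.19% of all 15145 genes called higher and 2.47% called lower. At an unadjusted p under 0.05, 19 members were higher, beside 11.2% of all genes. When each preparation, which had received both treatments, entered the fit as a block, 23 of 42 members were called higher and none lower, with 8.68% of all genes called higher and 9.55% lower. The call without the block depended on single libraries: leaving out DMSO replicate 1, 2 or 3 gave 2, 1 and 3 members (beside 0.453%, 0.113% and 1.23% of all genes called higher), leaving out Yoda1 replicate 1 or 2 gave 4 and 1 (beside 0.727% and 0.1%), and leaving out Yoda1 replicate 3 gave 6 (beside 3.18%). Leaving out both libraries of preparation 3 gave 19 members, beside 9.7% of all genes, and leaving out preparation 1 or 2 gave 0, with 0 genes of the whole table called. At an unadjusted p under 0.05 these fits had 17 and 10 members higher, and 1995 and 1254 genes in either direction. The fit with the block was not repeated with libraries or preparations left out.

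Size and direction were shared more widely than the calls. The median log2 fold change of the 42 members was 0.53 (quartiles 0.27 and 0.84, range -0.02 to 2.14), beside -0.01 over all genes tested. The estimate was above 0 for 41 of 42 members, beside 48.9% of all genes. The Yoda1 and DMSO libraries did not overlap for 18 members, all higher with Yoda1, beside 14.9% of all genes not overlapping in that direction and 15.1% in the other. A total of 29 members were higher with Yoda1 in all 3 preparations, beside 27.2% of all genes.

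The preparations differed in how far the members moved. In preparation 1, 29 of 42 members were higher with Yoda1 and the median log2 ratio was 0.25. In preparation 2 all 42 were higher and the median was 0.56, and in preparation 3 the numbers were 41 and 0.65. Yoda1 replicate 3 lay above the mean of the 6 libraries for 41 members, with a median log2 deviation of 0.62, and DMSO replicate 2 lay above it for 2, with a median deviation of -0.45. Epithelial marker levels were also highest in preparation 3, and macrophage markers, of which 6 of 11 were listed, summed to 3519 in Yoda1 replicate 3 against 2324 to 2744 in the other 5 libraries. Neither list had a marker called in either direction, and their part in the members' values was not tested.

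**Figure D1:**
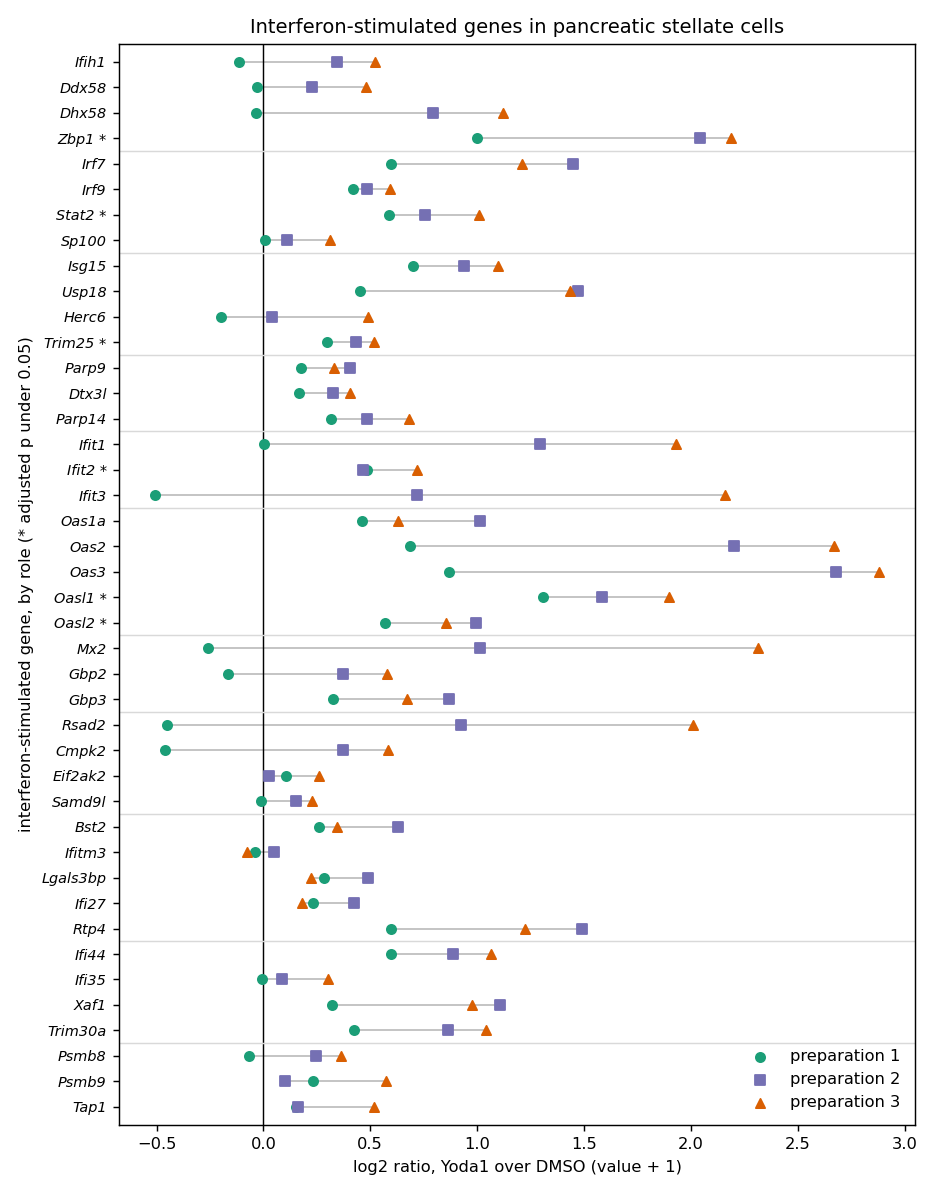
Log2 ratio of the normalized count + 1, Yoda1 over DMSO, within each of the 3 PSC preparations (x axis) for the 42 members tested, grouped by role (y axis), where a circle, square or triangle is 1 preparation, the grey line spans them and an asterisk marks an adjusted p under 0.05 by limma. Nearly every member lies right of 0 in preparations 2 and 3, while 13 members lie at or left of 0 in preparation 1.

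The OAS family had the largest median of the role groups. Its members are synthetases that make the second messenger 2-5A on double-stranded RNA, and related proteins, not all of which keep that activity. All 5 had a higher estimate with Yoda1, with a median log2 fold change of 1.60 (range 0.70 to 2.14). Without the block 2 of the 5 were called, and with it 5 of 5.

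Oasl1 (ENSMUSG00000041827, chromosome 5 from 114923240 to 114937915) encodes an OAS-like protein known as an inhibitor of Irf7 translation. Its normalized counts were 362, 302 and 304 in DMSO and 896, 907 and 1135 in Yoda1 (322 ± 34.0 and 979 ± 135, mean ± SD, n = 3 each). The 3 Yoda1 libraries were well above the 3 DMSO libraries. The log2 fold change was 1.60 ± 0.12 (SE, limma adjusted p = 0.0050).

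Its neighbour Oasl2 (chromosome 5 from 114896936 to 114912234), an OAS-like protein with ubiquitin-like domains, had 591, 540 and 573 in DMSO and 878, 1077 and 1038 in Yoda1. The groups did not overlap, and the log2 fold change was 0.81 ± 0.10 (SE, limma adjusted p = 0.013).

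Oas3 (chromosome 5 from 120753098 to 120777661) is the long synthetase that senses long double-stranded RNA, and it had the largest estimate of any member. Its values were 29.9, 6.73 and 16.1 in DMSO and 55.5, 48.6 and 125 in Yoda1. Every Yoda1 library exceeded every DMSO library, but the spread within each group was wide. The log2 fold change was 2.14 ± 0.58 (SE), with a limma adjusted p of 0.095 without the block and 0.026 with it. Oas2 had 22.4, 14.6 and 15.1 in DMSO and 36.7, 70.8 and 102 in Yoda1 (limma adjusted p = 0.053, and 0.031 with the block). Oas1a had 165, 137 and 213 in DMSO and 227, 277 and 330 in Yoda1, a log2 fold change of 0.70 (limma adjusted p = 0.11, and 0.019 with the block).

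The IFIT proteins include binders of viral RNA with unusual caps or ends. Ifit2 (chromosome 19 from 34550694 to 34576419) had 541, 510 and 476 in DMSO and 758, 705 and 785 in Yoda1. Its groups did not overlap, and it rose by 0.56 ± 0.08 on the log2 scale (SE, limma adjusted p = 0.019). Ifit1 (chromosome 19 from 34640871 to 34650009), which lies in the same cluster, had 76.1, 37.0 and 46.4 in DMSO and 76.2, 92.2 and 180 in Yoda1. In preparation 1 the paired Ifit1 values were nearly equal, and the log2 fold change of 1.07 ± 0.40 (SE) did not pass (limma adjusted p = 0.18, and 0.11 with the block). Ifit3 had 88.5, 38.1 and 48.5 in DMSO and 62.1, 63.4 and 220 in Yoda1. For Ifit3, preparation 1 went the other way and preparation 3 carried the difference (limma adjusted p = 0.45).

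Among the sensors of foreign nucleic acid, Zbp1 was called. ZBP1 recognises nucleic acid in the Z form and can trigger cell death. Zbp1 (chromosome 2 from 173206612 to 173218923) had 39.9, 29.2 and 39.4 in DMSO and 80.9, 123 and 183 in Yoda1, a log2 fold change of 1.74 ± 0.32 (SE, limma adjusted p = 0.033). All 3 Yoda1 values lay above all 3 DMSO values. The helicases Ifih1 (MDA5) and Ddx58 (RIG-I), which detect viral RNA, had log2 fold changes of 0.25 and 0.23, and their relative Dhx58 (LGP2) had 0.63. None of those 3 was called with or without the block.

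Of the transcription factors, Stat2 encodes the subunit that brings a transactivation domain to the complex with IRF9. Stat2 (chromosome 10 from 128270559 to 128292849) had 658, 647 and 731 in DMSO and 991, 1095 and 1470 in Yoda1, and rose by 0.78 ± 0.15 on the log2 scale (SE, limma adjusted p = 0.038). The lowest Yoda1 value was above the highest DMSO value. Irf9 (chromosome 14 from 55603571 to 55610030), the DNA-binding subunit, had 590, 615 and 703 in DMSO and 788, 861 and 1060 in Yoda1 (log2 fold change 0.50, limma adjusted p = 0.081, and 0.0071 with the block). Irf7 (chromosome 7 from 141262706 to 141266481), the factor that amplifies interferon-alpha transcription, had 209, 137 and 251 in DMSO and 317, 375 and 583 in Yoda1 (log2 fold change 1.08, limma adjusted p = 0.096, and 0.013 with the block). Neither Irf9 nor Irf7 overlapped between the groups. Sp100, a component of nuclear bodies, had a log2 fold change of 0.14 and was not called.

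ISG15 is a ubiquitin-like protein that is conjugated to targets, and USP18 removes it and dampens receptor signaling. Isg15 (chromosome 4 from 156199424 to 156200818) had 211, 158 and 270 in DMSO and 342, 304 and 577 in Yoda1. Its groups did not overlap, and the log2 fold change of 0.91 ± 0.29 (SE) had a limma adjusted p of 0.14, and of 0.0054 with the block. Usp18 (chromosome 6 from 121245906 to 121270917) had 122, 63.9 and 117 in DMSO and 167, 179 and 318 in Yoda1 (log2 fold change 1.12, limma adjusted p = 0.12, and 0.026 with the block). Trim25 (chromosome 11 from 88999376 to 89020293), a ubiquitin ligase that acts on RIG-I, had 2293, 2109 and 2307 in DMSO and 2814, 2847 and 3303 in Yoda1. It rose by a modest 0.42 ± 0.08 on the log2 scale (SE, limma adjusted p = 0.038), with no overlap. The ISG15 ligase gene Herc6 had a log2 fold change of 0.11 and was not called.

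**Figure D2:**
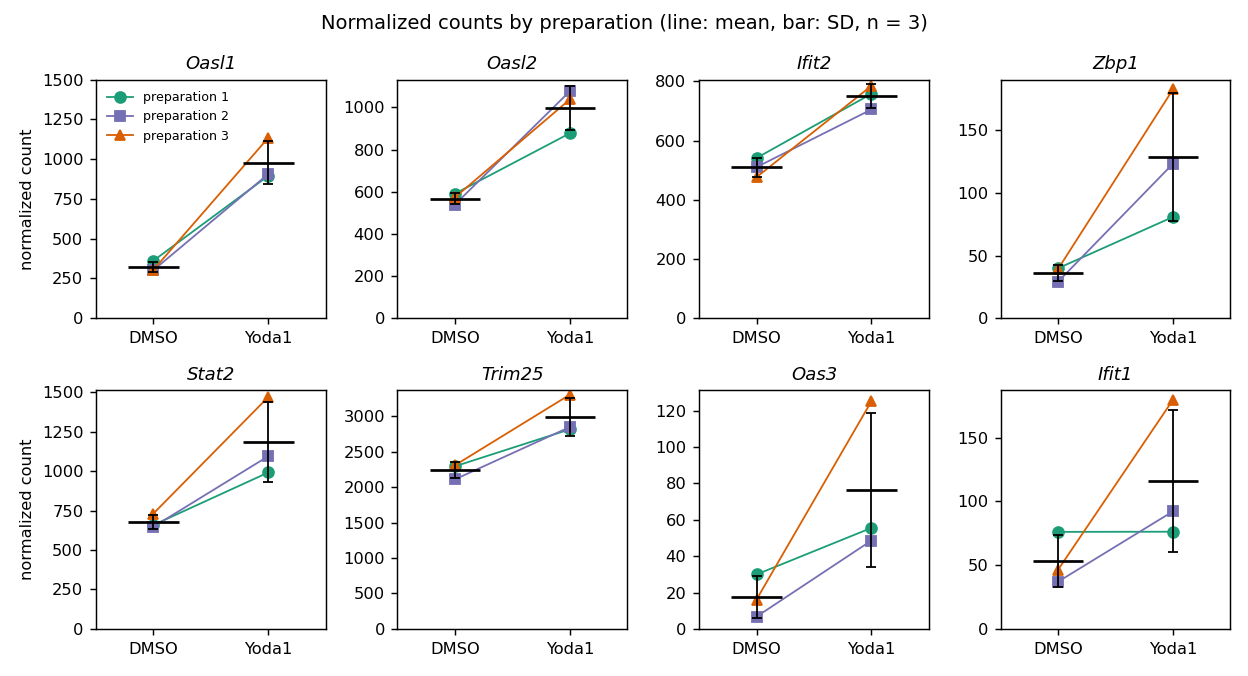
Normalized count (y axis, from 0) of the 6 members called in PSCs and of Oas3 and Ifit1, in DMSO and Yoda1 (x axis). Lines join the libraries of 1 preparation, black bars give the mean and SD of 3 libraries, and each panel shows preparation 3 (triangle) at or near the top under Yoda1, while Ifit1 of preparation 1 is level at 76.1 and 76.2.

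The remaining roles held no member called without the block. Parp9, Dtx3l and Parp14, partners in ADP-ribosylation and ubiquitination, had log2 fold changes of 0.30, 0.30 and 0.49, and all 3 were called with the block (limma adjusted p 0.032, 0.031 and 0.012). The genes Parp9 and Dtx3l overlap by 682 bases on opposite strands, and whether reads were counted by strand was not given in the sources used here. Of the membrane and secreted proteins, Bst2 (tetherin), Lgals3bp, Ifi27 and Rtp4 were called with the block and Ifitm3 was not. Ifitm3 (chromosome 7 from 141009586 to 141010770), which blocks viral fusion, had the lowest estimate of all members, with 6104, 6208 and 5699 in DMSO and 5937, 6417 and 5409 in Yoda1. Its groups overlapped fully and its log2 fold change was -0.02 ± 0.08 (SE, limma adjusted p = 0.89).

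Ifi44, Xaf1 and Trim30a were called with the block as well, with log2 fold changes of 0.85, 0.80 and 0.78, while Ifi35 (0.13) was not. The GTPases showed a median of 0.62 and no call: Mx2, a dynamin-like protein, had 13.7, 5.61 and 4.04 in DMSO and 11.3, 12.3 and 24.1 in Yoda1, near the filter. Mx1 did not reach the filter and was not tested, with 1.25, 2.24 and 1.01 in DMSO and 4.70, 3.29 and 11.2 in Yoda1. The nucleotide and translation effectors Rsad2 (viperin), Cmpk2, Eif2ak2 (PKR) and Samd9l had a median of 0.15 and no call in either fit. Rsad2 and Cmpk2, which are neighbours, were lower with Yoda1 in preparation 1 (log2 ratios -0.45 and -0.46). The antigen-processing members Psmb8, Psmb9 and Tap1 had log2 fold changes of 0.18 to 0.30 and no call in either fit.

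Members with and without the element core in their window changed in PSCs by overlapping amounts. The 15 members with a window that held the response element core had a median log2 fold change of 0.70 (range -0.02 to 2.14), with 1 called and 6 called with the block. The 18 whose window lacked it had a median of 0.32 (range 0.11 to 1.60), with 4 called and 10 called with the block. The 9 tested members with no window in the table, among them Zbp1, Oas2 and Usp18, had a median of 1.02. The difference between these sets was not tested.

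Other genes of the pathway gave the context for the members. A list of 155 such genes held 112 that were tested in PSCs, of which 4 were called higher and 1 lower without the block (median log2 fold change 0.20), beside 2.19% and 2.47% of all genes, and 29 higher and 9 lower with it, beside 8.68% and 9.55%. The receptor and kinase genes were not called without the block: the log2 fold changes were 0.14 for Ifnar1, 0.18 for Ifnar2, 0.11 for Jak1 and 0.29 for Tyk2, the last called with the block (limma adjusted p = 0.046). None of the 21 interferon ligand genes, Ifnb1 included, was listed in the PSC table, and their level in these cells was not analysed here.

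The 4 pathway genes that rose in PSCs were Phf11d, Gbp9, Ifi209 and H2-Q7. Phf11d had 112, 69.5 and 94.9 in DMSO and 238, 267 and 319 in Yoda1 (log2 fold change 1.58, limma adjusted p = 0.015). Gbp9, a guanylate-binding GTPase, had 48.6, 39.3 and 44.4 in DMSO and 78.1, 92.99 and 99.4 in Yoda1 (1.01, limma adjusted p = 0.030). Ifi209, of the IFI200 family of DNA sensors, had 1.25, 4.49 and 4.04 in DMSO and 20.7, 21.4 and 14.4 in Yoda1 (log2 fold change 2.31, limma adjusted p = 0.037), so it passed the expression filter through the Yoda1 libraries alone, which favours a difference. The class I gene H2-Q7 had 63.6, 68.4 and 85.8 in DMSO and 140, 117 and 144 in Yoda1 (0.88, limma adjusted p = 0.042), and it belongs to a family of near-identical copies whose reads could be split between them. The 1 pathway gene that fell was Cxcl10, a chemokine that interferon-gamma and NF-kB both induce. Cxcl10 had 349, 187 and 255 in DMSO and 38.6, 20.6 and 85.8 in Yoda1, and fell by 2.61 ± 0.51 on the log2 scale (SE, limma adjusted p = 0.042).

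Markers of other cell types were also read in PSCs. Neutrophil markers, of which 1 of 10 was listed, summed to 3.74 to 12.3 in DMSO and 3.21 to 5.76 in Yoda1, and endothelial markers to 1696 to 2079 and 1064 to 1308, with 1 of 4 called higher and 1 lower. The endothelial sum was mostly Kdr, at 1303 to 1891 in DMSO and 597 to 861 in Yoda1, while Cdh5 and Lyve1 were higher in Yoda1 in each preparation. The plasmacytoid dendritic cell list, which shares Bst2 and Irf7 with the members, summed to 4182 to 5537 in DMSO and 5284 to 5840 in Yoda1, with no marker called. T and NK cell markers, of which 1 of 8 was listed, summed to 66.1 to 81.9 in DMSO and 26.5 to 38.6 in Yoda1, and that gene, Trac, was called lower. Of the 11 stellate and fibroblast markers listed, 6 were called lower and none higher by limma at an adjusted p under 0.05, and Pdgfra, not called, had 3874, 3819 and 2803 in DMSO and 7428, 6880 and 4956 in Yoda1. In these bulk samples a change in the number of cells of a type and a change of RNA per cell cannot be told apart.

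In livers, the members were compared between WT and TRPV4-KO mice, between WT and GSK219 mice and between TRPV4-KO and GSK219 mice, to ask whether loss or block of TRPV4 altered them. The first and second comparisons share the WT livers. By edgeR at an adjusted p under 0.05, none of the 43 members was called in any of the 3 comparisons. Over all 15118 genes tested, 0.165% were called higher and 0.126% lower in WT than in TRPV4-KO, 0% in either direction between WT and GSK219, and 0.0595% and 0.0463% between TRPV4-KO and GSK219. At an unadjusted p under 0.05, 9 members were higher in WT than in TRPV4-KO (20.9% of members, beside 9.5% of all genes) and 7 were higher in WT than in GSK219 (beside 5.87%). By DESeq2, 2 members were called higher in WT than in TRPV4-KO (Oasl1 and Lgals3bp), with 3.09% of all genes called higher, and none was called between WT and GSK219. Between TRPV4-KO and GSK219 DESeq2 called Xaf1 higher and Oasl1 lower in TRPV4-KO, beside 63 genes higher and 57 lower of 17024. With the replicate number as a block, edgeR called 8 members higher in WT than in TRPV4-KO (Irf7, Sp100, Ifit2, Oas2, Oas3, Oasl2, Lgals3bp and Trim30a, or 18.6% of members, beside 2.61% of all genes), and none between WT and GSK219 or between TRPV4-KO and GSK219, although it could not be settled that the numbers pair the livers. WT has no replicate 3, so the block's term for that number rests on TRPV4-KO and GSK219 livers alone. TRPV4-KO replicate 3 therefore weighs less against WT in that fit. For TRPV4-KO against GSK219 the block called 9 genes higher and 11 lower in place of 9 and 7.

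Estimates leaned toward WT. The log2 fold change of WT over TRPV4-KO was above 0 for 32 of 43 members with a median of 0.25, beside 48.8% and -0.01 for all genes. With the block it was above 0 for 40 of 43 members with a median of 0.51, beside 50.1% of all genes. For WT over GSK219 it was above 0 for 40 of 43 with a median of 0.35, beside 49.7% of all genes. The livers did not overlap, with WT higher, for 13 members against TRPV4-KO and 19 against GSK219, beside 17.7% and 15.6% of all genes. The members' shares were 30.2% and 44.2%. In each comparison 1 member was lower in WT without overlap (beside 15.5% and 11.7%). Between TRPV4-KO and GSK219 the median was 0.08 and 29 members were above 0 (beside 52.6% of all genes), and 2 members were higher and 1 lower without overlap, beside 5.85% and 4.35% of all genes.

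The comparison with TRPV4-KO depended on single livers. TRPV4-KO replicate 3 had the highest level of its group for 40 of 43 members, beside 44.6% of all genes, and GSK219 replicate 3 for 33 of 43, beside 39.1%. Without TRPV4-KO replicate 3, 11 members were called higher in WT by edgeR (Dhx58, Irf7, Sp100, Isg15, Herc6, Oasl1, Mx1, Lgals3bp, Rtp4, Trim30a and Psmb9), with 5.02% of all genes called higher, and the members' median was 0.67. The median was 0.083 without WT replicate 1, 0.34 without WT replicate 2, and 0.11 and 0.10 without TRPV4-KO replicate 1 or 2, with no member called. Both replicates numbered 3 and WT replicate 1 are the livers with Xist reads. Between the Xist livers, WT replicate 1 was higher than TRPV4-KO replicate 3 for 17 of 43 members (median log2 difference -0.09), and between the livers with Y-linked reads WT was higher for 37 of 43 (median 0.56). The same values against GSK219 were 33 of 43 (0.23) and 38 of 43 (0.43), and each of these sets holds 1 or 2 livers a group, too few to test.

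**Figure D3:**
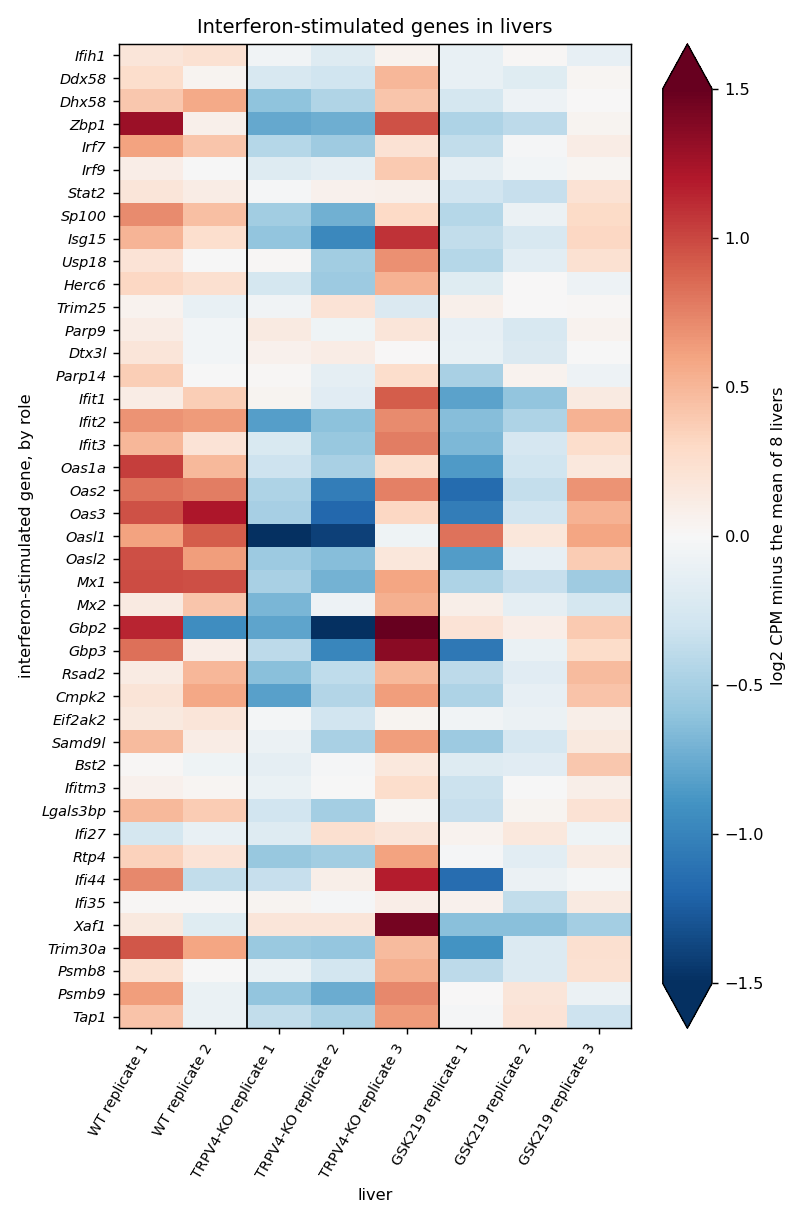
Log2 CPM of each of the 43 members (rows, by role) minus the mean of the 8 livers, in each liver (columns), with red above and blue below that mean and the scale ending at -1.5 and 1.5. WT replicate 1 and TRPV4-KO replicate 3 are mostly red, with 42 and 41 of 43 members above the mean, and TRPV4-KO replicates 1 and 2 and GSK219 replicate 1 are mostly blue, with 7, 6 and 7 above it.

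The OAS family again had the largest median, 1.09 for WT over TRPV4-KO and 0.92 for WT over GSK219. No OAS member was called by edgeR without a further term. The OAS genes lie on chromosome 5, as does Trpv4. Whether DNA linked to the knocked-out Trpv4 gene bears on their TRPV4-KO values was not tested. For WT over TRPV4-KO, DESeq2 called Oasl1, and edgeR with the block called Oas2, Oas3 and Oasl2. With a term for Xist reads in the fit, edgeR called Oasl2 higher in WT than in TRPV4-KO, beside 2.3% of all genes, and none of the family against GSK219. Values are counts scaled to library size by TMM (CPM) in each liver. Oasl1 had 18.3 and 22.6 CPM in WT, 3.92, 4.54 and 11.5 in TRPV4-KO and 21.1, 13.5 and 18.1 in GSK219. TRPV4-KO was below both other groups without overlap, whereas WT and GSK219 overlapped. The log2 fold change of WT over TRPV4-KO was 1.61 ± 0.43 (SE, edgeR adjusted p = 0.15) and that of TRPV4-KO over GSK219 was -1.39 ± 0.40 (SE, edgeR adjusted p = 0.54, DESeq2 adjusted p = 0.037). Without TRPV4-KO replicate 3 both passed, at 2.27 (edgeR adjusted p = 0.0068) and -2.05 (edgeR adjusted p = 0.012). For WT over GSK219 the Oasl1 estimate was 0.22 ± 0.42 (SE).

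The other OAS genes followed a pattern of their own, with GSK219 livers near the TRPV4-KO livers. Oas1a had 12.1 and 8.28 CPM in WT, 4.74, 4.21 and 7.06 in TRPV4-KO and 3.27, 4.77 and 6.58 in GSK219. Oas3 had 11.1 and 13.2 in WT, 4.05, 2.53 and 7.06 in TRPV4-KO and 2.77, 4.65 and 8.19 in GSK219. Oasl2 had 16.7 and 13.3 in WT, 5.88, 5.51 and 9.67 in TRPV4-KO and 4.78, 7.85 and 11.2 in GSK219. For these 3 genes WT lay above all other livers, with log2 fold changes of 0.93 to 1.41 over TRPV4-KO (edgeR adjusted p 0.23, 0.21 and 0.20) and 0.92 to 1.22 over GSK219 (edgeR adjusted p 0.54, 0.57 and 0.57). Oas2 had 18.4 and 17.8 in WT, 7.59, 5.12 and 17.7 in TRPV4-KO and 4.72, 8.15 and 16.7 in GSK219, so replicate 3 of each group nearly reached WT.

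Mx1, whose intact protein is a GTPase that restricts influenza viruses, was at 11.2 or less in every PSC library. In livers it had 6.50 and 6.41 CPM in WT, 2.34, 2.01 and 4.98 in TRPV4-KO and 2.39, 2.60 and 2.27 in GSK219. Its log2 fold change over GSK219, 1.41 ± 0.38 (SE, edgeR adjusted p = 0.47), was the largest of any member in that comparison, and the GSK219 livers were tightly grouped. Irf7 had 82.5 and 72.03 in WT, 40.3, 37.3 and 63.1 in TRPV4-KO and 41.9, 53.5 and 58.5 in GSK219, again with WT above the rest (0.72, edgeR adjusted p = 0.20 over TRPV4-KO, and 0.59, edgeR adjusted p = 0.57 over GSK219). Lgals3bp, a secreted glycoprotein, had 139 and 130 in WT, 81.9, 69.9 and 102 in TRPV4-KO and 78.2, 102 and 116 in GSK219 (0.67 over TRPV4-KO, edgeR adjusted p = 0.16).

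Xaf1 had the lowest estimate of WT over TRPV4-KO, 1 of 11 members below 0 there, and the highest of TRPV4-KO over GSK219. XAF1 is a pro-apoptotic partner of the inhibitor XIAP. Xaf1 (chromosome 11 from 72301629 to 72313733) had 13.5 and 10.7 CPM in WT, 13.8, 13.8 and 33.0 in TRPV4-KO and 7.87, 7.91 and 8.55 in GSK219. TRPV4-KO was above both other groups without overlap, with replicate 3 the highest of all 8 livers. The log2 fold change was -0.74 ± 0.38 for WT over TRPV4-KO (SE, edgeR adjusted p = 0.36) and 1.32 ± 0.34 for TRPV4-KO over GSK219 (SE, edgeR adjusted p = 0.43, DESeq2 adjusted p = 0.024), and without TRPV4-KO replicate 3 these were -0.19 and 0.77. Ifi27, a small hydrophobic protein, had the lowest estimate against GSK219, with 61.1 and 67.7 in WT, 63.9, 86.1 and 82.8 in TRPV4-KO and 76.0, 81.7 and 70.2 in GSK219 (-0.24 ± 0.15, SE, edgeR adjusted p = 0.75).

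**Figure D4:**
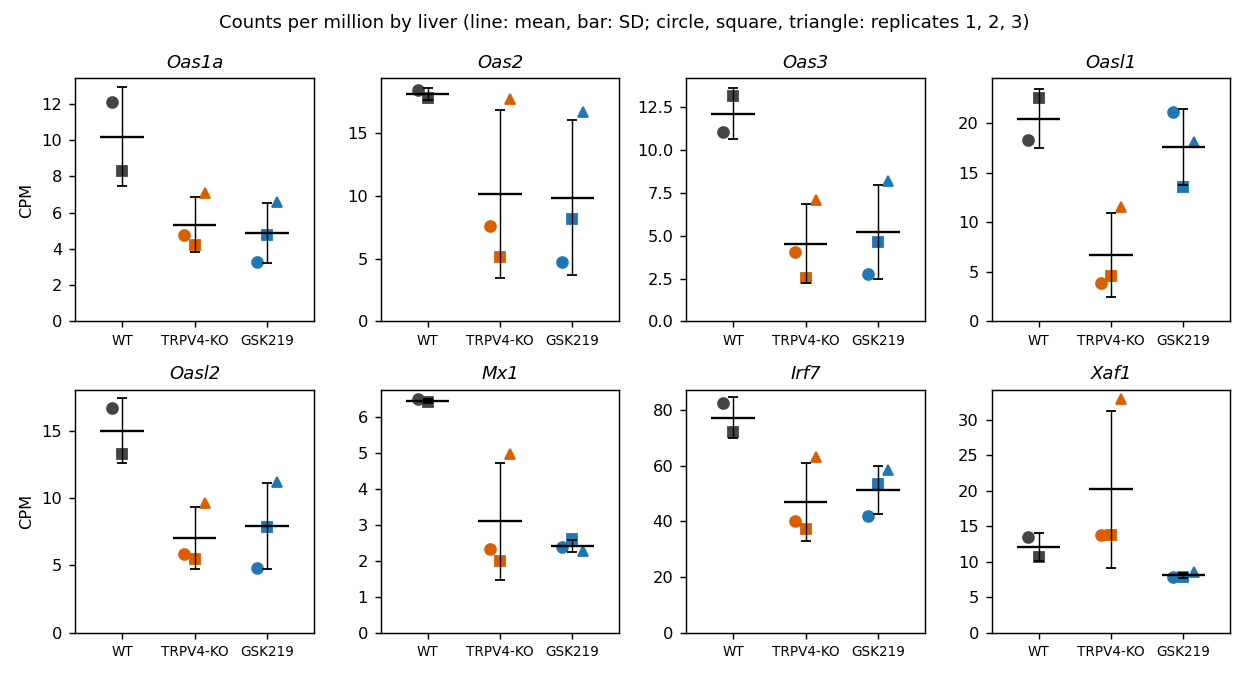
CPM (y axis, from 0) of the 5 OAS family members, Mx1, Irf7 and Xaf1 in WT, TRPV4-KO and GSK219 livers (x axis), with a circle, square or triangle for replicate 1, 2 or 3 and black bars for the mean and SD (n = 2, 3 and 3). In TRPV4-KO the triangle stands above the other points in every panel, at 33.0 for Xaf1, and the GSK219 points of Oasl1 (13.5 to 21.1) overlap with those of WT (18.3 and 22.6).

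Of the usual readouts of an interferon response, Isg15, Ifit1 and Usp18 were not called by edgeR with all livers in the fit. Isg15 had 10.8 and 9.09 CPM in WT, 5.06, 3.89 and 16.1 in TRPV4-KO and 5.92, 6.46 and 9.44 in GSK219, and TRPV4-KO replicate 3 was the highest of all livers. Ifit1 had 9.96 and 11.8 in WT, 9.42, 8.16 and 17.3 in TRPV4-KO and 5.29, 6.10 and 10.1 in GSK219. Usp18 had 10.8 and 9.38 in WT, 9.55, 6.54 and 15.1 in TRPV4-KO and 6.98, 8.46 and 11.0 in GSK219, and for all 3 of these genes WT overlapped with each of the other groups. The edgeR adjusted p for WT over TRPV4-KO was 0.87, 0.93 and 0.96 for Isg15, Ifit1 and Usp18, and without TRPV4-KO replicate 3 Isg15 passed (log2 fold change 1.16, edgeR adjusted p = 0.046). Irf9 had 48.1 and 44.9 in WT, 39.5, 41.1 and 59.1 in TRPV4-KO and 40.9, 43.7 and 45.9 in GSK219. Stat2 had 130 and 124 in WT, 113, 120 and 121 in TRPV4-KO and 93.8, 90.1 and 133 in GSK219 (log2 fold change 0.11 over TRPV4-KO, edgeR adjusted p = 0.80).

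Pathway genes outside the members were also compared in the livers. Of 127 tested, 0 were called by edgeR in each of the 3 comparisons without the block. With it 6 were called higher in WT than in TRPV4-KO, beside 2.61% of all genes, and 0 in the other comparisons. Without the block, 22 were higher and 9 lower in WT than in TRPV4-KO at an unadjusted p under 0.05, beside 9.5% and 7.61% of all genes. Against GSK219 18 were higher and 0 lower in WT, beside 5.87% and 2.34%. Of the 8 receptor and kinase genes tested, 2 were higher in WT than in TRPV4-KO at that unadjusted threshold and 0 were lower. These were Ifngr1, a subunit of the interferon-gamma receptor (log2 fold change 0.84, edgeR adjusted p = 0.14), and Il10rb, a shared subunit of the interferon-lambda receptor (0.68, edgeR adjusted p = 0.26). Ifnar1 had 0.07 and Tyk2 had 0.13. Of the 15 class I presentation genes tested, 0 were higher and 5 lower in WT than in TRPV4-KO at that threshold. Their median log2 fold change was -0.22. Of the 21 ligand genes, 18 had 0 counts in all 8 livers, Ifnb1 among them, and the highest count of any was 4 (Ifnk). A count of 0 allows up to 3 counts per liver at 95% confidence for counting error only.

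Marker sums of macrophages, neutrophils and stellate cells were each larger in both WT livers than in any other liver. Macrophage and monocyte markers summed to 1291 to 1510 CPM in WT, 547, 383 and 803 in TRPV4-KO and 398, 706 and 964 in GSK219, with no marker called. Neutrophil markers summed to 72.9 to 84.7 in WT, 6.80 to 17.2 in TRPV4-KO and 6.17 to 15.8 in GSK219. By edgeR 3 of 10 were higher in WT than in TRPV4-KO. Mpo had 5.69 and 4.08 CPM in WT and at most 0.289 in any other liver. Mpo, Elane, Cxcr2 and Cd177 reached the filter through the WT livers alone, which favours a difference. Stellate and fibroblast markers summed to 602 and 398 in WT, 245, 143 and 319 in TRPV4-KO and 190, 280 and 301 in GSK219, with no marker called. Endothelial markers summed to 471 and 428 in WT, 313, 271 and 420 in TRPV4-KO and 313, 390 and 435 in GSK219. For these WT lay above TRPV4-KO but overlapped with GSK219, with no marker called. Hepatocyte markers, which define the tissue, summed to 59050 to 69074 in WT, 81817 to 100151 in TRPV4-KO and 79636 to 91030 in GSK219. Without Alb these sums overlapped, at 24699 to 27414, 25760 to 28328 and 24990 to 29945. Within TRPV4-KO and within GSK219, replicate 3 had the highest macrophage, stellate and endothelial sums as well as the highest level of most members, and the part of these cells in the members' values was not tested.

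Levels per kilobase ordered the members in a similar way in both tissues. Ifitm3 and then Bst2 were the highest in all 5 groups, at 8855 normalized counts per kilobase for Ifitm3 in DMSO PSCs and 509 CPM per kilobase in WT livers. The lowest in DMSO PSCs were Mx1 (0.396), Mx2 (2.15) and Oas3 (2.49), and the lowest in WT livers was Ifi44 (0.713). The rank correlation of the 43 levels between DMSO PSCs and WT livers was 0.66, a description across genes that share their annotated lengths. Oasl1 stood at rank 14 of 43 in DMSO and rank 8 in Yoda1, and in livers at rank 19 for WT, 33 for TRPV4-KO and 17 for GSK219.

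Set side by side, Oas3 had an estimate above 1 in PSCs and in WT over both other liver groups. Across the 42 members tested in both, the log2 fold change of Yoda1 over DMSO and that of WT over TRPV4-KO had Pearson r = 0.50 and Spearman rho = 0.29, and with WT over GSK219 the values were 0.58 and 0.48. These describe genes, which are not independent replicates, several of which lie in clusters (Oasl1 with Oasl2, Oas2 with Oas3, and Ifit1, Ifit2 and Ifit3), and the liver comparisons share the WT livers. Zbp1 had 1.74 in PSCs and 0.74 and 1.05 in livers. Trim25 rose in PSCs by 0.42 on the log2 scale, and its liver estimates were -0.02 and -0.06.

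**Figure D5:**
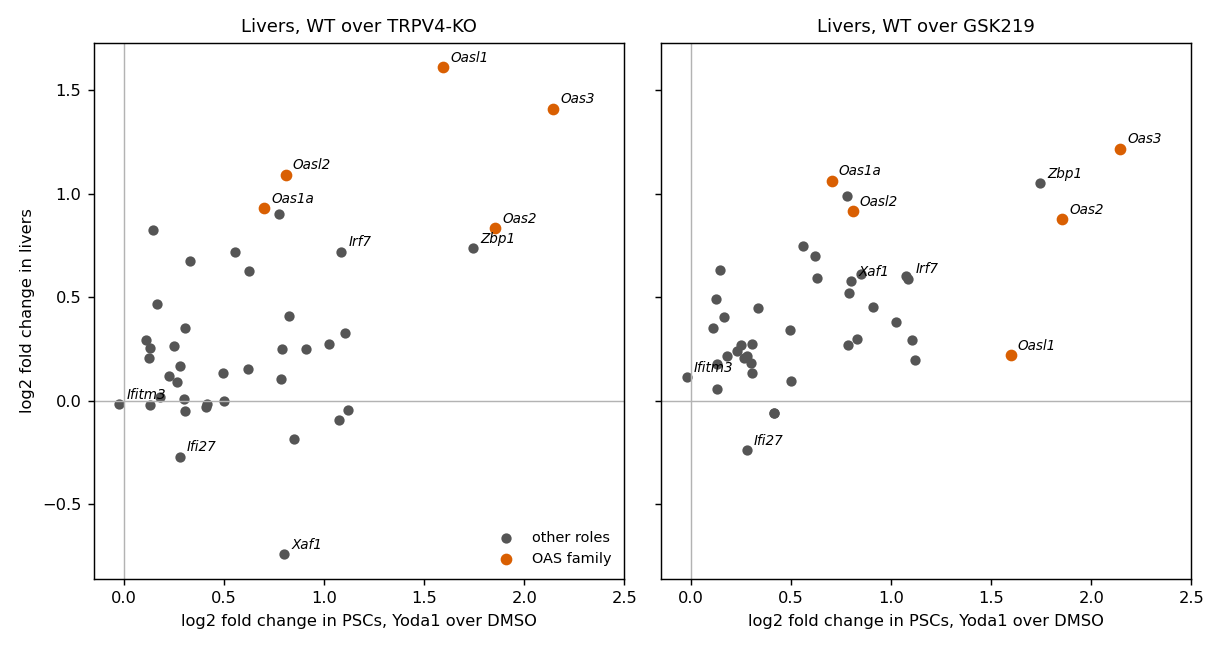
Log2 fold change of the 42 members in PSCs, Yoda1 over DMSO (x axis), against that in livers (y axis), WT over TRPV4-KO on the left and WT over GSK219 on the right, with the OAS family in orange. Oas3 lies to the upper right in both panels, Oasl1 lies at 0.22 on the y axis against GSK219, and Xaf1 lies lowest on the left at -0.74.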

How the data were processed

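RNA-Seq was made from 6 PSC libraries and 8 livers, grouped by their sample titles. The 43 members, their role groups, the pathway list and the marker lists were chosen with earlier results of these data known. For livers the deposited table holds raw gene counts. Per the labels' processing notes, HISAT2 2.0.5 and Trim Galore were among the tools, and the counting tool was not given in the sources used here. For PSCs the deposited signal values are gene counts that the authors had divided by 1 size factor per library, since 100% of values were whole multiples of a step within a tolerance of 0.1, which gave back the reads. That file also holds the authors' own fold changes, standard errors, test statistics and p-values, which were not used, and 7 count columns of the liver table belong to no labelled sample and were not used.

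PSC values were tested with limma 3.58.1 (R 4.3.3, trend and robust) on log2(value + 1) keeping genes that reached a value of 10 in 3 or more libraries. Fold changes are on that scale, which understates the change of low genes. Liver counts were tested with edgeR 4.0.16 (TMM, quasi-likelihood, minimum count 10) in 1 fit of 8 livers, and DESeq2 1.42.0 was an alternative for both. Benjamini-Hochberg adjustment covered all genes tested. The numbers of the PSC replicates mark preparations that received both treatments, and deviations from the group means correlated within numbers (r 0.26 to 0.53, mean 0.41), so the block is given beside the results. Nothing in the labels says that liver replicate numbers mark a shared origin. Between TRPV4-KO and GSK219 the same-numbered livers correlated at 0.29, 0.16 and 0.58, but differently numbered livers reached 0.31 and 0.46 and the 0.58 joins livers with Xist reads, so it could not be settled that the numbers pair the livers. Liver values with the block are given as an alternative. The code was tested on simulated data. Values in every library were given for members called in the main fits, without the block and with all libraries. They were also given for the largest estimate in each direction and for Ifit1, Isg15, Irf7, Irf9, Stat2 and Usp18. Those of further members were chosen after their values were seen. The labels name samples of a group biological replicates without saying that each came from a separate animal or culture. For the WT and TRPV4-KO livers, a figure legend of the study counts the n of 2 and 3 as animals. The p-values measure the spread between these samples. Gene coordinates are those of the liver table, and 98.3% of 54409 genes and 42 of the 43 members had the same chromosome, start and end in a GRCm38 annotation. A total of 34 alternatives were planned, and leaving out whole preparations, the block with edgeR and the block with a fold threshold were added after seeing the data. One gene of the pathway list is not reported here.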

Additional observations from a re-analysis of the deposited data

How the results depend on the processing

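In PSCs the median of the members stayed above 0 in every setting tried, at 0.33 to 0.62 when libraries or preparations were left out, and no member was called lower. The number called higher, 6, became 23 with the replicate block and also with edgeR on recovered reads and the block, 13 by DESeq2, 3 without the mean-variance trend and 2 for a log2 fold change over 1, and ranged from 0 to 19 when libraries or preparations were left out. The same 6 were called with pseudocounts of 0.1 and 10, no filter, quantile normalization, or edgeR on recovered reads, which called 343 genes higher and 351 lower. Over all genes, 331 higher and 374 lower became 1314 and 1446 with the block, 787 and 783 by DESeq2, 159 and 154 without the trend, 111 and 119 for a log2 fold change over 1, and 1394 and 1345 with edgeR and the block. The estimate of Ifitm3 turned to 0.029 under quantile normalization and ranged from -0.082 to 0.041 on leaving out libraries.

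In livers, members called higher in WT than in TRPV4-KO went from 0 to 2 by DESeq2, 8 with the replicate block (Oas2, Oas3 and Oasl2 among them), 1 (Oasl2) with a term for Xist reads, and 0 to 11 on leaving out livers. The 25 and 19 genes called overall became 461 and 321 by DESeq2, 394 and 137 with the block, 347 and 188 with the Xist term and 124 and 74 without the filter. No source says what the WT numbers share with those of the other groups, and 2 WT livers have mirrored deviations, so their correlations with same-numbered livers (-0.48 to 0.53) do not settle a pairing. With the block the WT over TRPV4-KO estimate turned to 0.28 for Ifit1, 0.13 for Irf9 and 0.26 for Usp18, and that of TRPV4-KO over GSK219 to -0.031 for Isg15. With only the compared groups Irf9 was 0.018. On leaving out livers, WT over TRPV4-KO ranged from -0.29 to 0.31 for Ifit1, -0.11 to 0.21 for Irf9, -0.29 to 0.33 for Usp18 and -0.090 to 1.16 for Isg15, and TRPV4-KO over GSK219 from -0.41 to 0.012 for Irf7, -0.70 to 0.54 for Isg15, -0.11 to 0.20 for Irf9 and -0.13 to 0.49 for Usp18. DESeq2 called 1 member higher (Xaf1) and 1 lower (Oasl1) in TRPV4-KO than in GSK219, beside 63 and 57 of all genes, and leaving out livers gave 0 to 1 lower, the 1 (Oasl1) without TRPV4-KO replicate 3, beside 80 and 61 genes. For WT over GSK219 the count was 0 under all alternatives run. The causes were not tested.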
